A study of Chlorocebus aethiops with 12 samples.

Results

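The C/EBP family of leucine zipper transcription factors and the BTB zinc finger repressors ZBTB16 and BCL6 were examined for their response to dexamethasone (Dex), a synthetic glucocorticoid. The members were chosen by accession: 7 accessions were listed, for CEBPA (NM_004364), CEBPB (NM_005194), CEBPD (NM_005195), CEBPG (NM_001806), ZBTB16 (NM_006006 and NM_001018011) and BCL6 (NM_001706). Of these, 5 were on the arrays, out of 32379 accessions in all, and they were read by 8 probes on 17 spots per array. NM_001018011 and BCL6 were not analysed here, so ZBTB16 stands for NM_006006 throughout. All 5 accessions passed the filter on dim probes and were among the 23756 accessions tested.

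The cells were COS-1, a fibroblast-like kidney line from the African green monkey that carries the SV40 large T antigen. They were transfected with FuGENE6 with the glucocorticoid receptor (GR) together with MDFIC, a protein with a MyoD family inhibitor domain, or with GR alone. From the day after transfection they were kept in medium with charcoal-stripped serum, which is depleted of steroids. At 48 h after transfection they received 100 nM Dex or vehicle for 6 h. The 4 groups were GR+MDFIC Dex, GR+MDFIC vehicle, GR Dex and GR vehicle, with 3 biological replicates each, per the labels. Every group carried transfected GR, and no group without it was analysed. The share of cells that took up plasmid is not given in the sources used here. An array reads the mean of all cells, so a change in fewer cells and a smaller change in every cell cannot be told apart. The probes were those of an array for human transcripts, read here with monkey RNA. The match of each probe to the monkey transcript was not checked, and this bears on every member, those that did not pass the test included.

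GR is a nuclear receptor that binds DNA and changes transcription when a glucocorticoid occupies it. C/EBP proteins bind DNA as homodimers or heterodimers with each other, and are known for roles in fat cell, liver and myeloid differentiation and in the acute phase response. ZBTB16, also called PLZF, recruits corepressors through its BTB domain, and its transcript is a known glucocorticoid target in several human cell types.

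The 12 arrays lay on 3 slides, and the slides were not balanced over the groups. Slide 1 held the 3 GR vehicle arrays and GR Dex replicate 1. Slide 2 held GR Dex replicates 2 and 3 and GR+MDFIC vehicle replicates 1 and 2. Slide 3 held the 3 GR+MDFIC Dex arrays and GR+MDFIC vehicle replicate 3. The arrays of slide 3 stood apart: their 75th percentile of signal averaged 386, against 850 on slide 1 and 868 on slide 2, and they lay apart from the other 8 on a leading principal component that held 46.9% of the variance. Between 70.3% and 75.2% of non-control spots per array were well above background. Each comparison is therefore given also with slide as a block, which for the Dex effects amounts to the arrays of slide 1 in GR cells and of slide 3 in GR+MDFIC cells.

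Dex raised CEBPD and ZBTB16 in both kinds of transfected cell, and the other 3 members did not pass the test. Treatment and slide largely coincide in both kinds of cell. The ZBTB16 call in GR+MDFIC cells was lost with slide as a block (limma, Benjamini-Hochberg adjusted p = 0.109), which left 1 member called there. With the block the log2 change of ZBTB16 went from 0.23 to 0.27 and its SE from 0.05 to 0.07. In GR+MDFIC cells 2 of the 5 members were called higher with Dex and 0 lower, where 13.5% of all tested accessions were called in either direction, 6.60% higher and 6.94% lower. In GR cells 2 of 5 were called higher and 0 lower, against 7.17% of all tested accessions called in either direction, 4.40% higher and 2.77% lower. The median log2 change of the 5 members was 0.012 in GR+MDFIC cells, where that of all tested accessions was -0.0070. In GR cells the members' median was 0.0056, and that of all tested accessions was 0.0074. The calls are those of limma, with Benjamini-Hochberg adjustment over all tested accessions and a threshold of 0.05. Both Dex comparisons called 3.61% of tested accessions higher. Their group means share no arrays, but the spread of each accession was estimated from all 4 groups together. The 2 tests are thus not independent.

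**Figure D1:**
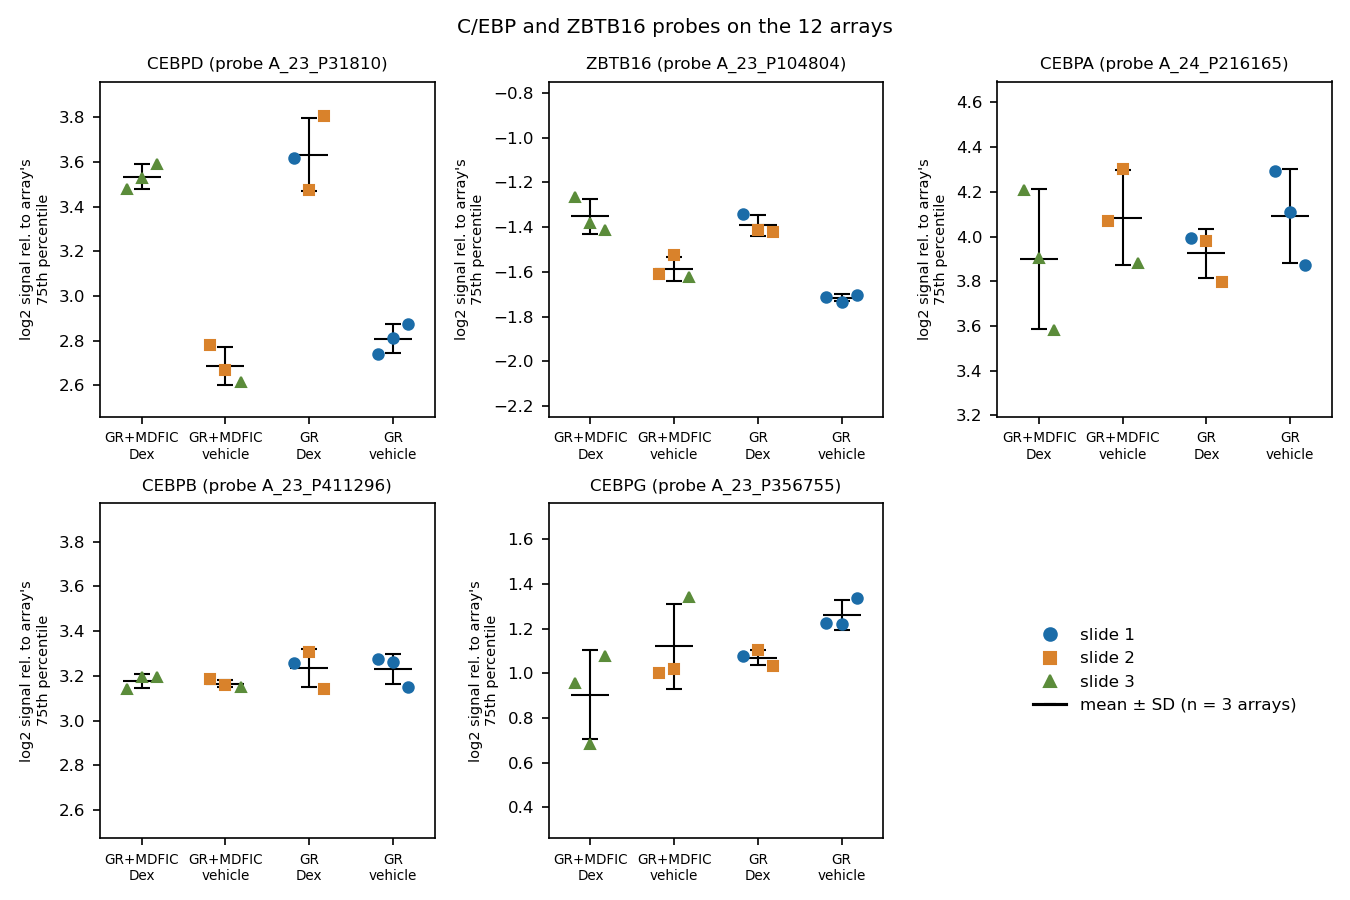
Level of each member on each of the 12 arrays, as log2 signal relative to the array's 75th percentile (y axis), by group (x axis), with 1 point per array and a bar for the mean. Within each kind of cell the Dex arrays lie above the vehicle arrays for CEBPD and for ZBTB16. CEBPD ran from 3.48 to 3.80 with Dex and from 2.62 to 2.87 with vehicle over both kinds of cell. Groups did not overlap for 32.2% of tested accessions in GR+MDFIC cells and for 26.2% in GR cells.

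CEBPD encodes C/EBP delta, an early factor in fat cell differentiation and an acute phase regulator. Levels are log2 processed signal relative to the 75th percentile of the same array, so that 0 is the signal below which 75% of non-control spots lie. In GR+MDFIC cells the CEBPD probe read 3.48, 3.53 and 3.59 with Dex, against 2.78, 2.67 and 2.62 with vehicle. All 3 Dex arrays lay above all 3 vehicle arrays, where 32.2% of tested accessions had groups that did not overlap. The difference was 0.84 ± 0.08 (log2, SE, n = 3 each), or 1.80-fold higher with Dex, with a 95% interval of 0.66 to 1.03 (limma, Benjamini-Hochberg adjusted p = 0.000176).

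In GR cells CEBPD read 3.62, 3.48 and 3.80 with Dex, against 2.74, 2.81 and 2.87 with vehicle. The groups again did not overlap, as for 26.2% of tested accessions in GR cells, and the Dex arrays were spread more widely than the vehicle arrays (SD 0.16 with Dex, 0.07 with vehicle). The difference was 0.82 ± 0.08 (log2, SE, n = 3 each), or 1.77-fold higher with Dex, with a 95% interval of 0.64 to 1.01 (limma, Benjamini-Hochberg adjusted p = 0.000283). A larger absolute change was seen for 9.63% of tested accessions in GR+MDFIC cells and for 2.88% in GR cells.

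The CEBPD change was also present between arrays of a single slide. On slide 3 the processed signals were 4065, 4365 and 4983 with Dex in GR+MDFIC cells, against 2361 on the vehicle array. On slide 1 the signal was 9780 on the GR Dex array, against 5427, 6423 and 6411 on the GR vehicle arrays. With slide as a block the log2 change was 0.92 in GR+MDFIC cells and 0.81 in GR cells, and both remained past the threshold (limma, Benjamini-Hochberg adjusted p = 0.0076 and 0.0149). Each of these within-slide comparisons has 1 array on one side, whose spread is taken from the other groups. With slide as a block, 3.41% of tested accessions were called in GR+MDFIC cells and 3.56% in GR cells.

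ZBTB16 was a dimmer signal that was well above background on all 12 arrays. In GR+MDFIC cells it read -1.26, -1.38 and -1.41 with Dex, against -1.61, -1.52 and -1.62 with vehicle. The groups did not overlap, as for 32.2% of tested accessions in GR+MDFIC cells. The difference was 0.23 ± 0.05 (log2, SE, n = 3 each), or 1.18-fold higher with Dex, with a 95% interval of 0.12 to 0.35 (limma, Benjamini-Hochberg adjusted p = 0.0154). This call was lost in 4 of 25 alternatives. Some of the 25, such as leaving out a GR array, could not move the log2 change. The limma adjusted p was 0.109 with slide as a block (log2 change 0.27) and 0.0956 when only these 2 groups were fitted (0.23). It was 0.0504 with arrays scaled to their median (0.19) and 0.0598 without GR+MDFIC vehicle replicate 1 (0.22), and over all alternatives it ranged from 0.0106 to 0.109.

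In GR cells ZBTB16 read -1.34, -1.41 and -1.42 with Dex, against -1.71, -1.73 and -1.70 with vehicle. The vehicle arrays lay close together (SD 0.02), below every Dex array, where 26.2% of tested accessions had groups that did not overlap. The difference was 0.32 ± 0.05 (log2, SE, n = 3 each), or 1.25-fold higher with Dex, with a 95% interval of 0.21 to 0.44 (limma, Benjamini-Hochberg adjusted p = 0.00399). With slide as a block it was 0.38, and it stayed past the threshold (limma, adjusted p = 0.0347).

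The unscaled ZBTB16 signal depended on the slide. Its mean was 151 on the GR+MDFIC Dex arrays, against 207 on the GR+MDFIC vehicle arrays, of which replicates 1 and 2 lay on the brighter slide 2. On slide 3 alone the signals were 152, 145 and 156 with Dex, against 125 with vehicle. The direction of the ZBTB16 change in GR+MDFIC cells therefore came from the scaled values and from the comparison within slide 3, not from the raw means. A larger absolute change was seen for 36.1% of tested accessions in GR+MDFIC cells and for 14.6% in GR cells.

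**Figure D2:**
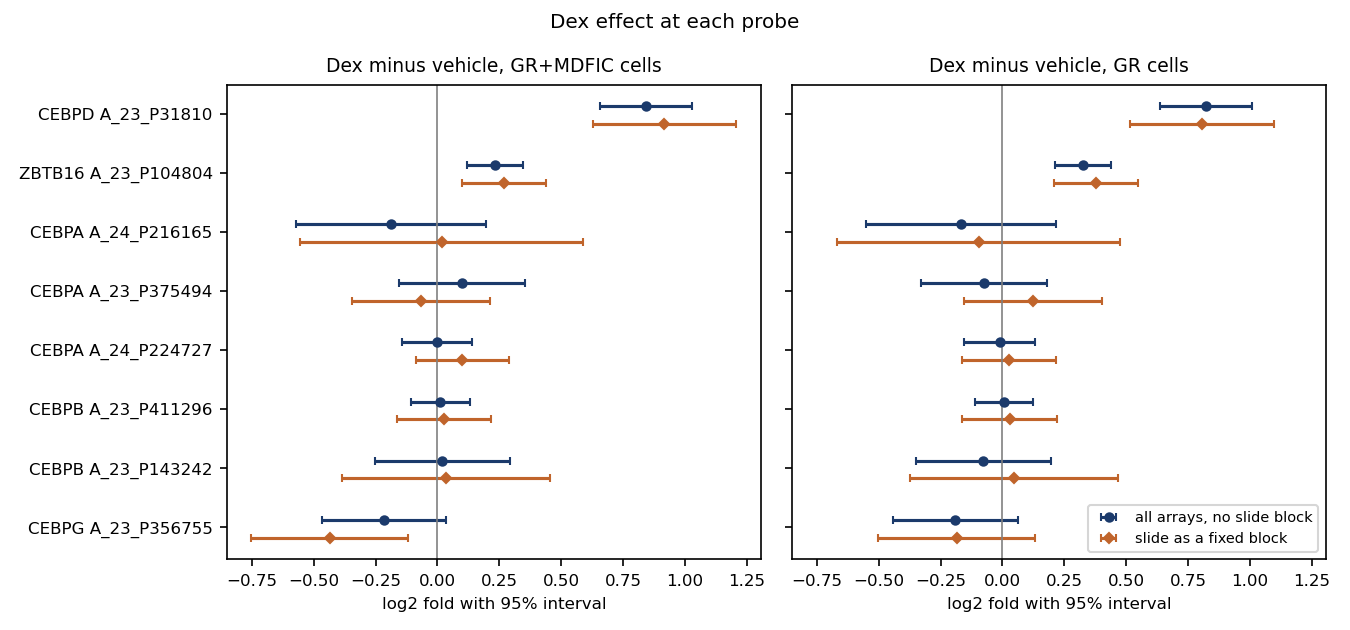
Log2 change with Dex over vehicle (axis of values) for each of the 8 probes of the 5 members in GR+MDFIC and in GR cells. The 95% intervals are from limma, without and with slide as a block. Without the block, the intervals of CEBPD (0.66 to 1.03 in GR+MDFIC cells, 0.64 to 1.01 in GR cells) and ZBTB16 exclude 0, and those of CEBPA, CEBPB and CEBPG include it. With the block, the CEBPG interval in GR+MDFIC cells (-0.75 to -0.12) also excludes 0.

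CEBPG encodes C/EBP gamma, which lacks a strong activation domain and acts as a dimer partner of other leucine zipper proteins. In GR+MDFIC cells it read 0.96, 0.68 and 1.08 with Dex, against 1.0, 1.02 and 1.34 with vehicle. The groups overlapped, and the vehicle array at 1.34 was the one on slide 3. The difference was -0.22 ± 0.11 (log2, SE, n = 3 each), with a 95% interval of -0.47 to 0.04, and did not pass the test (limma, Benjamini-Hochberg adjusted p = 0.216). With slide as a block it was -0.43, with an interval of -0.75 to -0.12, and an adjusted p of 0.167 in limma. Leaving out 1 array moved it between -0.30 and -0.10, and it was nearest to 0 without GR+MDFIC Dex replicate 2 (-0.10) or GR+MDFIC vehicle replicate 3 (-0.11).

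In GR cells CEBPG read 1.08, 1.10 and 1.03 with Dex, against 1.23, 1.22 and 1.34 with vehicle. All 3 Dex arrays lay below all 3 vehicle arrays, a separation that 26.2% of tested accessions also showed. The difference was -0.19 ± 0.11 (log2, SE, n = 3 each), with a 95% interval of -0.44 to 0.06 (limma, Benjamini-Hochberg adjusted p = 0.422). The slide block left it at -0.19. The SE of 0.11 rests on the spread of all 4 groups. The SD was 0.19 and 0.20 on the GR+MDFIC vehicle and Dex arrays, against 0.07 and 0.03 on the GR vehicle and Dex arrays. Fitted with only the 2 GR groups, CEBPG had an SE of 0.06 and still did not pass the test (limma, adjusted p = 0.131).

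CEBPB encodes C/EBP beta, an early factor of fat cell differentiation and a mediator of inflammatory signalling. Its brighter probe was printed on 10 spots per array. In GR+MDFIC cells it read 3.14, 3.20 and 3.19 with Dex, against 3.18, 3.16 and 3.15 with vehicle. In GR cells it read 3.26, 3.31 and 3.14 with Dex, against 3.27, 3.26 and 3.15 with vehicle. The Dex and vehicle arrays overlapped in both kinds of cell.

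The log2 change of CEBPB was 0.012 in GR+MDFIC cells, with a 95% interval of -0.11 to 0.13 (limma, adjusted p = 0.898). In GR cells it was 0.0056, with an interval of -0.11 to 0.12 (limma, adjusted p = 0.982). The CEBPB change with slide as a block was 0.026 in GR+MDFIC cells and 0.029 in GR cells. The intervals without the block exclude changes of the size measured for CEBPD. The SD between the 10 spots of an array was 0.036 to 0.091. The second CEBPB probe changed by 0.019 in GR+MDFIC cells and by -0.08 in GR cells (limma, p adjusted over probes = 0.933 and 0.821). On that probe GR vehicle replicate 1 read -0.99, against -1.46 and -1.45 on the other GR vehicle arrays.

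CEBPA encodes C/EBP alpha, which drives terminal differentiation and growth arrest in fat, liver and myeloid cells. It was read by 3 probes, and the brightest of them was taken for the accession. In GR+MDFIC cells that probe read 4.21, 3.90 and 3.58 with Dex, against 4.07, 4.30 and 3.88 with vehicle. In GR cells it read 4.0, 3.98 and 3.80 with Dex, against 4.29, 4.11 and 3.87 with vehicle. The groups overlapped in both comparisons, and the GR+MDFIC Dex arrays had the widest spread of the 4 groups (SD 0.31).

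The log2 change of CEBPA was -0.19 in GR+MDFIC cells, with a 95% interval of -0.57 to 0.20 (limma, adjusted p = 0.483). In GR cells it was -0.17, with an interval of -0.55 to 0.22 (limma, adjusted p = 0.696). With slide as a block the sign in GR+MDFIC cells turned, to 0.017, and the change in GR cells was -0.10. The other CEBPA probes changed by 0.10 and -0.0034 in GR+MDFIC cells and by -0.08 and -0.012 in GR cells, and neither probe passed the test. Without the block, the 3 probes differed in sign in GR+MDFIC cells and were all below 0 in GR cells. With slide as a block, the other CEBPA probes changed by -0.07 and 0.10 in GR+MDFIC cells and by 0.12 and 0.025 in GR cells. The 3 probes then differed in sign in both kinds of cell.

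**Figure D3:**
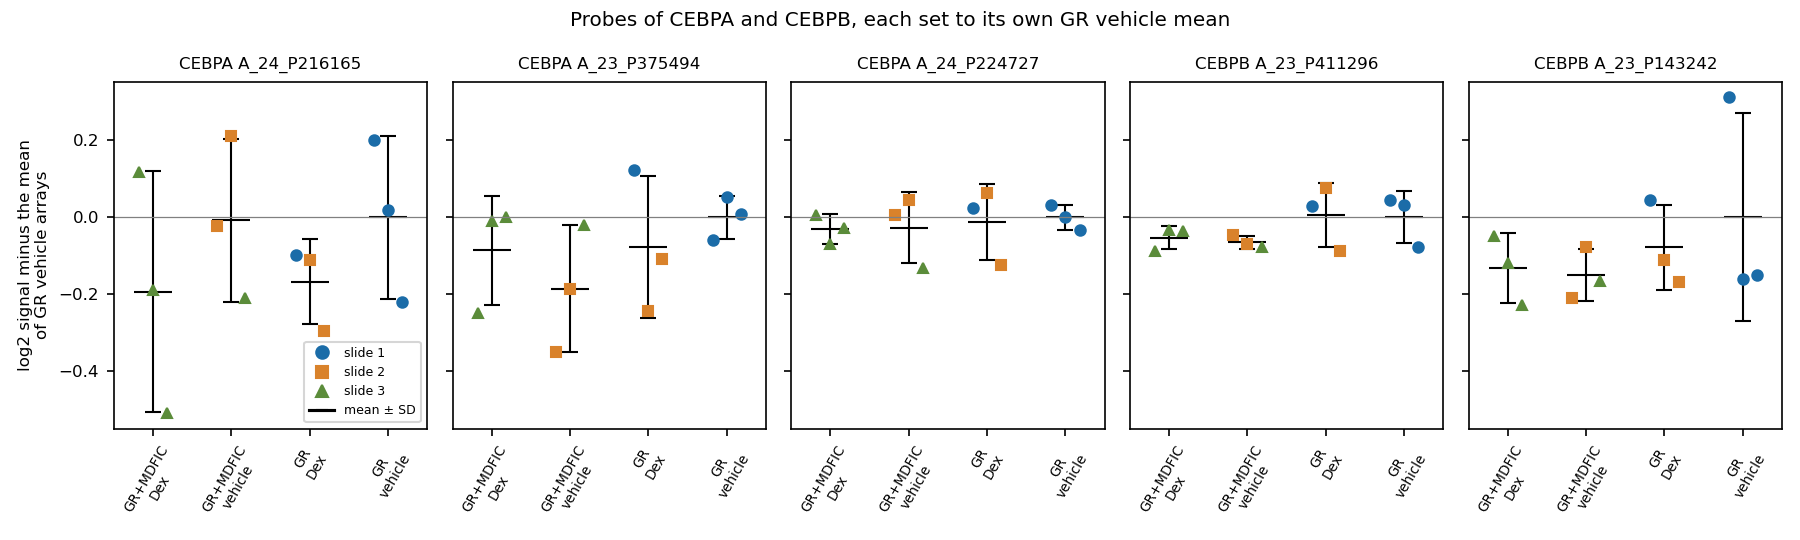
Level of the 3 CEBPA probes and 2 CEBPB probes on each array, as log2 signal minus the probe's mean over the GR vehicle arrays (y axis), by group (x axis). Each array is 1 point, with a bar for the mean and SD. The Dex and vehicle arrays overlap for every one of these probes in both kinds of cell.

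The Dex effect was then compared between the 2 kinds of transfected cell. For CEBPD the effect in GR+MDFIC cells minus that in GR cells was 0.02 ± 0.12 (log2, SE), with a 95% interval of -0.24 to 0.28 (limma, Benjamini-Hochberg adjusted p = 0.963). For ZBTB16 it was -0.09 ± 0.07, with an interval of -0.25 to 0.07 (limma, adjusted p = 0.673). It was -0.019 for CEBPA, 0.0064 for CEBPB and -0.025 for CEBPG. The differences with slide as a block were 0.11 for CEBPD, -0.11 for ZBTB16, 0.11 for CEBPA, -0.0031 for CEBPB and -0.25 for CEBPG, and every interval included 0. The difference was called for 0 of the 5 members, with 0 at an unadjusted p under 0.05, where 0.0589% of tested accessions were called. These p-values do not show that the effects were alike, and the intervals give the differences that these arrays allow.

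**Figure D4:**
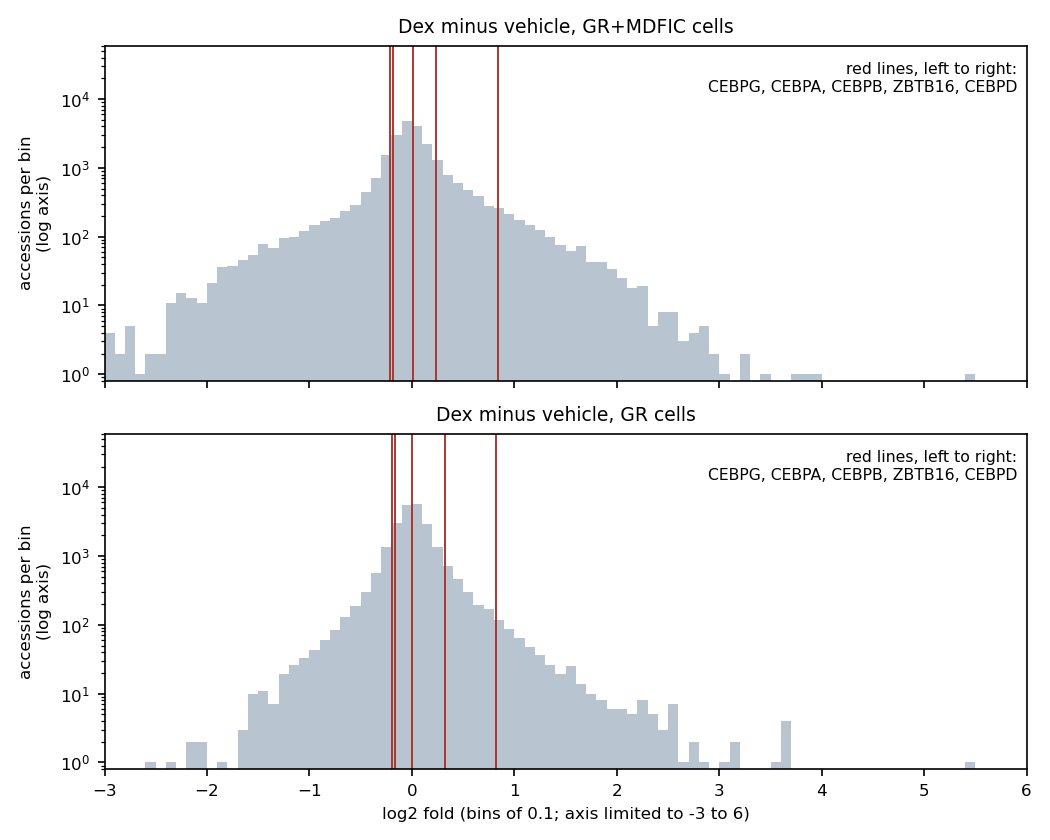
Distribution of the log2 change with Dex over vehicle across the 23756 tested accessions, in GR+MDFIC and in GR cells, with the 5 members marked. CEBPD lies toward the upper end in both (0.84 in GR+MDFIC cells, 0.82 in GR cells), and CEBPB lies near 0.

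MDFIC itself was tested on the members' levels with the treatment held fixed. With vehicle, 0 of 5 members were called between GR+MDFIC and GR cells by limma, with 1 at an unadjusted p under 0.05, where 0.884% of tested accessions were called. That member was ZBTB16, with a log2 difference of 0.13 (95% interval 0.02 to 0.24) and did not pass the test (limma, adjusted p = 0.234). Its groups did not overlap, as for 22.1% of tested accessions in this comparison. The 3 GR vehicle arrays all lay on slide 1 and no GR+MDFIC array did. A slide effect is thus separated from that of MDFIC here only by way of the GR Dex arrays, which lay on slides 1 and 2. CEBPD differed by -0.12 with vehicle, with an interval of -0.31 to 0.07 (limma, adjusted p = 0.485). CEBPA differed by -0.0072, CEBPB by -0.06 and CEBPG by -0.14, and none of these passed the test. The slide block gave a difference with vehicle of 0.23 for ZBTB16, with an interval of 0.0033 to 0.45 that excludes 0 (limma, adjusted p = 0.498). It gave -0.11 for CEBPD, 0.20 for CEBPA, -0.023 for CEBPB and -0.24 for CEBPG. None of the 5 members passed the test with the block.

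With Dex, 0 of 5 members were called between GR+MDFIC and GR cells, with 0 at an unadjusted p under 0.05, where 5.54% of tested accessions were called by limma. CEBPD differed by -0.10, with a 95% interval of -0.28 to 0.09 (limma, adjusted p = 0.506). ZBTB16 differed by 0.04, with an interval of -0.07 to 0.15 (limma, adjusted p = 0.684). The 3 GR+MDFIC Dex arrays all lay on slide 3 and no GR array did. A slide effect is thus separated from that of MDFIC here only by way of the GR+MDFIC vehicle arrays. Of these, only replicate 3 lay on slide 3. Among the remaining members CEBPA differed by -0.026, CEBPB by -0.06 and CEBPG by -0.17, and none passed the test. CEBPG with slide as a block differed by -0.49, with an interval of -0.91 to -0.07 that excludes 0, but did not pass the test over all accessions (limma, adjusted p = 0.699). The other differences with the block were 0.0021 for CEBPD, 0.12 for ZBTB16, 0.31 for CEBPA and -0.027 for CEBPB, and none passed the test.

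The accessions whose levels followed the members most closely over the 12 arrays were found by Pearson correlation among 16126 tested mRNA accessions. For CEBPD they were NM_020529 (r = 0.984) and NM_000029 (r = 0.982). NM_020529 was 1.05 higher with Dex (log2) in GR+MDFIC cells and 0.94 higher in GR cells, and NM_000029 was 1.94 higher in GR+MDFIC cells and 1.88 higher in GR cells. For ZBTB16 they were NM_001278221 (r = 0.971) and NM_005943 (r = 0.967). For the members not called with Dex, the highest r was 0.968 for CEBPA, 0.914 for CEBPG and 0.900 for CEBPB. All these correlations are descriptions, since each was picked as among the highest of many and the 12 points share groups and slides. CEBPD and ZBTB16 correlated with each other at r = 0.83 over the same arrays.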

How the data were processed

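The members and lists were chosen with earlier results of these data known. The deposited scanner files hold linear fluorescence intensity per spot (Agilent Feature Extraction 12, per the submitters' processing notes; versions 12.0.0.7 on slides 1 and 2 and 12.0.3.1 on slide 3, per the file headers), and the other columns used, per the file headers, hold spot names and quality flags. The deposited series table held the same values, with a largest difference of 0. From the processed signal, log2 was taken and each array's 75th percentile over non-control spots subtracted. Spots of a probe were averaged. Of 41000 probes, 30177 were kept whose spots rose well above background on each of the 3 arrays of some group, with at least 2 arrays per group free of outlier flags. The kept probe with the highest mean stood for its accession. A model of 4 group means was fitted to 12 arrays with limma 3.58.1 in R 4.3.3 (8 residual degrees of freedom, 6 with slide as a block), two-sided, with Benjamini-Hochberg adjustment over 23756 accessions. Code was tested on simulated data. The number of arrays limits the precision.

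The named genes were all listed members with every probe, and for each member the 2 accessions of the highest correlation, printed here for CEBPD and ZBTB16. No table used here pairs accessions with gene names, so the pathway and marker lists and the transfected genes were not analysed, nor was the labelled cell line checked against markers. Member symbols came with the member list. Alternatives were median or quantile scaling, normexp with an offset of 50, the deposited series table, outlier spots kept, and other filters and probe rules. Further ones were slide or replicate number as a block, only the groups compared, another variance model, and leaving out arrays. Over the tested accessions as a whole, same-numbered replicates did not deviate together, so the design was left unpaired. CEBPA went otherwise, with replicate 3 lowest in each group on its brightest probe.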

Additional observations from a re-analysis of the deposited data

How the results depend on the processing

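Over the alternatives, CEBPD was called higher with Dex in all, at 0.80 to 0.92 (log2) in GR+MDFIC cells and 0.74 to 0.90 in GR cells, and ZBTB16 in GR cells in all, at 0.26 to 0.38. Of 630 member values under an alternative, 579 kept direction and side of the threshold, 4 lost the call (ZBTB16 in GR+MDFIC cells) and 47 changed sign. None of the 47 was called by limma in either setting. Part of the 579 was fixed in advance. The deposited series table held the same values, so nothing could change with it. Other filters, outlier spots kept, and leaving out an array of a group not compared left the log2 changes as they were. In those settings only the adjusted p could move, so the counts are not counts of independent checks. The cause was not tested for any change below.

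Members called with Dex in GR+MDFIC cells numbered 1, against 2, with median scaling, slide as a fixed block or only the groups compared, and 1 to 2 with an array left out. Sign changes in the CEBPB Dex effect were to -0.036 in GR+MDFIC cells and -0.022 in GR cells with median scaling, and to -0.036 in GR cells with the mean of probes. Its difference between cells became -0.014 with median scaling and -0.0031 with slide as a fixed block. The CEBPA difference between GR+MDFIC and GR cells with vehicle became 0.023 with quantile scaling, 0.14 with normexp, 0.20 with slide as a fixed block, 0.0015 as a random block and 0.094 without slide 3. With Dex it became 5.33e-05, 0.098, 0.31 and 0.011 in the first 4 of these settings. The CEBPA Dex effect in GR+MDFIC cells became 0.017 with slide as a fixed block. Its difference between cells became 0.055 with the mean of probes, 0.11 with slide as a fixed block and 0.0098 as a random block. CEBPD between GR+MDFIC and GR cells with Dex became 0.0021 with slide as a fixed block.

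With an array left out, the CEBPB Dex effect in GR cells ran from -0.033 to 0.052, and the CEBPG Dex effect in GR+MDFIC cells from -0.30 to -0.10. Between GR+MDFIC and GR cells, CEBPA ran from -0.12 to 0.094 with vehicle and from -0.18 to 0.13 with Dex, and ZBTB16 from -0.0046 to 0.069 with Dex. The differences of the Dex effects ran from -0.17 to 0.14 for CEBPA, -0.040 to 0.046 for CEBPB, -0.057 to 0.11 for CEBPD and -0.11 to 0.086 for CEBPG.

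Counts over all accessions moved more. Dex in GR+MDFIC cells called 3217 accessions, but 809 with slide as a fixed block, 1388 with only the groups compared and 1816 to 6336 with an array left out, the highest without GR+MDFIC vehicle replicate 3, the group's array on slide 3. Dex in GR cells called 1704, but 845 with slide as a fixed block and 1081 to 1775 with an array left out. GR+MDFIC against GR cells with vehicle called 210, but 115 without a filter, 71 and 106 with slide as a fixed or random block, 115 with the replicate block, 45 with only the groups compared, 328 with an intensity trend and 89 to 580 with an array left out. With Dex it called 1317, but 2331 with normexp, 862 without a filter, 48 and 114 with slide as a fixed or random block, 2294 with only the groups compared, 2040 with an intensity trend and 96 to 3112 with an array left out. The difference of the Dex effects called 14, but 9 with normexp, 3 with the filter on all arrays, 6 with slide as a random block, 5 with the replicate block, 5 with an intensity trend and 2 to 1815 with an array left out, the highest again without GR+MDFIC vehicle replicate 3.

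Over the tested accessions as a whole, replicate numbers shared by the groups did not pair the arrays (correlations of deviations from -0.114 to 0.062). For CEBPA, replicate 3 was lowest in each group on the brightest probe. The replicate block took the SE of its Dex effects from 0.17 to 0.10. Neither effect passed the test (limma adjusted p = 0.256 in GR+MDFIC cells and 0.447 in GR cells). With the replicate block no member call changed: CEBPD was at 0.84 in GR+MDFIC cells and 0.82 in GR cells (limma adjusted p = 0.000904 and 0.00136), and ZBTB16 at 0.23 in GR+MDFIC cells and 0.32 in GR cells (limma adjusted p = 0.0227 and 0.00934).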
